A study of Mus musculus with 30 samples.

Results

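The genes described here encode the ephrins, semaphorins, Slits and netrins, secreted or membrane-bound guidance cues, together with their receptors. They were taken by symbol from both deposited expression tables of mouse embryonic stem (ES) cells and embryoid bodies (EBs), the aggregates that ES cells form when they differentiate in suspension. Of the 23284 genes in these tables, 67 were members: 14 Eph receptors, 8 ephrins, 20 semaphorins of classes 3 to 7, 9 plexins, 2 neuropilins, 3 Slits, 4 Robo receptors and 7 genes of the netrin branch (Ntn1, Ntn4, Unc5a to Unc5d and Dcc). The symbols alone fixed the membership, and no measured value entered it.

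RNA was sequenced from 14 libraries, 2 in each of 7 groups. The time course used wild-type E14Tg2a.IV ES cells (129/Ola), called E14 below, grown in serum with LIF, a cytokine that keeps ES cells undifferentiated, and sampled as ES cells at day 0 and as EBs at days 1, 2, 3 and 4. The genotype comparison used EBs at day 4 from ES cells of C57BL/6J background kept in N2B27 with LIF and 2 inhibitors, PD0325901 and CHIR99021. Of these, 1 group was Trp53-/- and also carried short hairpin RNAs against p63 and p73 (p53 family loss below), and it was set against Trp53+/+ EBs. The labels do not say whether the genotype lines are single clones, nor whether the 2 libraries of a group came from separate cultures, so p-values measure only the spread between these samples.

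Guidance cues are best known for steering axons, and the same cues act in the early embryo, where they set tissue boundaries and direct migrating mesoderm and forming vessels. Ephrins are anchored to the cell surface and bind Eph receptor tyrosine kinases on a neighbouring cell, and they signal in both directions. Semaphorins act through plexins, with neuropilins as co-receptors for the secreted class 3 members. Slits bind Robo receptors, and netrin 1 attracts growing axons through Dcc and repels them through Unc5 receptors.

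Values below are normalised read counts, that is, reads of a gene in a library divided by that library's scaling factor. They compare libraries for 1 gene within 1 table, and they do not compare genes with each other because transcript length was not taken into account. The E14 libraries held 20104644 to 39835808 reads and the genotype libraries 19104692 to 31580252. The labels were checked against marker genes. At day 4, 8 of 8 markers of the primitive streak and early mesoderm were higher than at day 0, with a median log2 fold change of 7.64, and 7 of 8 naive ES cell markers were lower, with a median of -5.21. The 2 libraries of day 0 differed from each other by over 2-fold in 15 of the 65 tested guidance genes, so the count of calls and the values most affected are also given without each of them. In bulk RNA, fewer cells of a type and less RNA per cell cannot be told apart. Whether reads were counted by strand is not given in the sources used here, so reads of a guidance gene and of an antisense partner could not be separated.

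Day 4 was set against day 0 to see which guidance genes differ after 4 days of differentiation. Most of them were higher in EBs at day 4. Of 65 members with enough reads for the test, 44 rose and 6 fell, which is 76.9% of the tested members, where 36% of all 15841 genes tested were called (19.2% higher and 16.7% lower). A call means a Benjamini-Hochberg adjusted p under 0.05 in limma. The members' median log2 fold change was 1.50, against 0.01 over all genes tested, and 48 of the 50 changes exceeded 2-fold. Epha3 and Epha6 had too few reads, at most 8 and 15 in any E14 library. With 1 of the 10 libraries left out in turn, 35 of the 50 were called in every run. By role, 23 of 33 ligands rose and 3 fell, and 21 of 32 tested receptors rose and 3 fell.

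**Figure D1:**
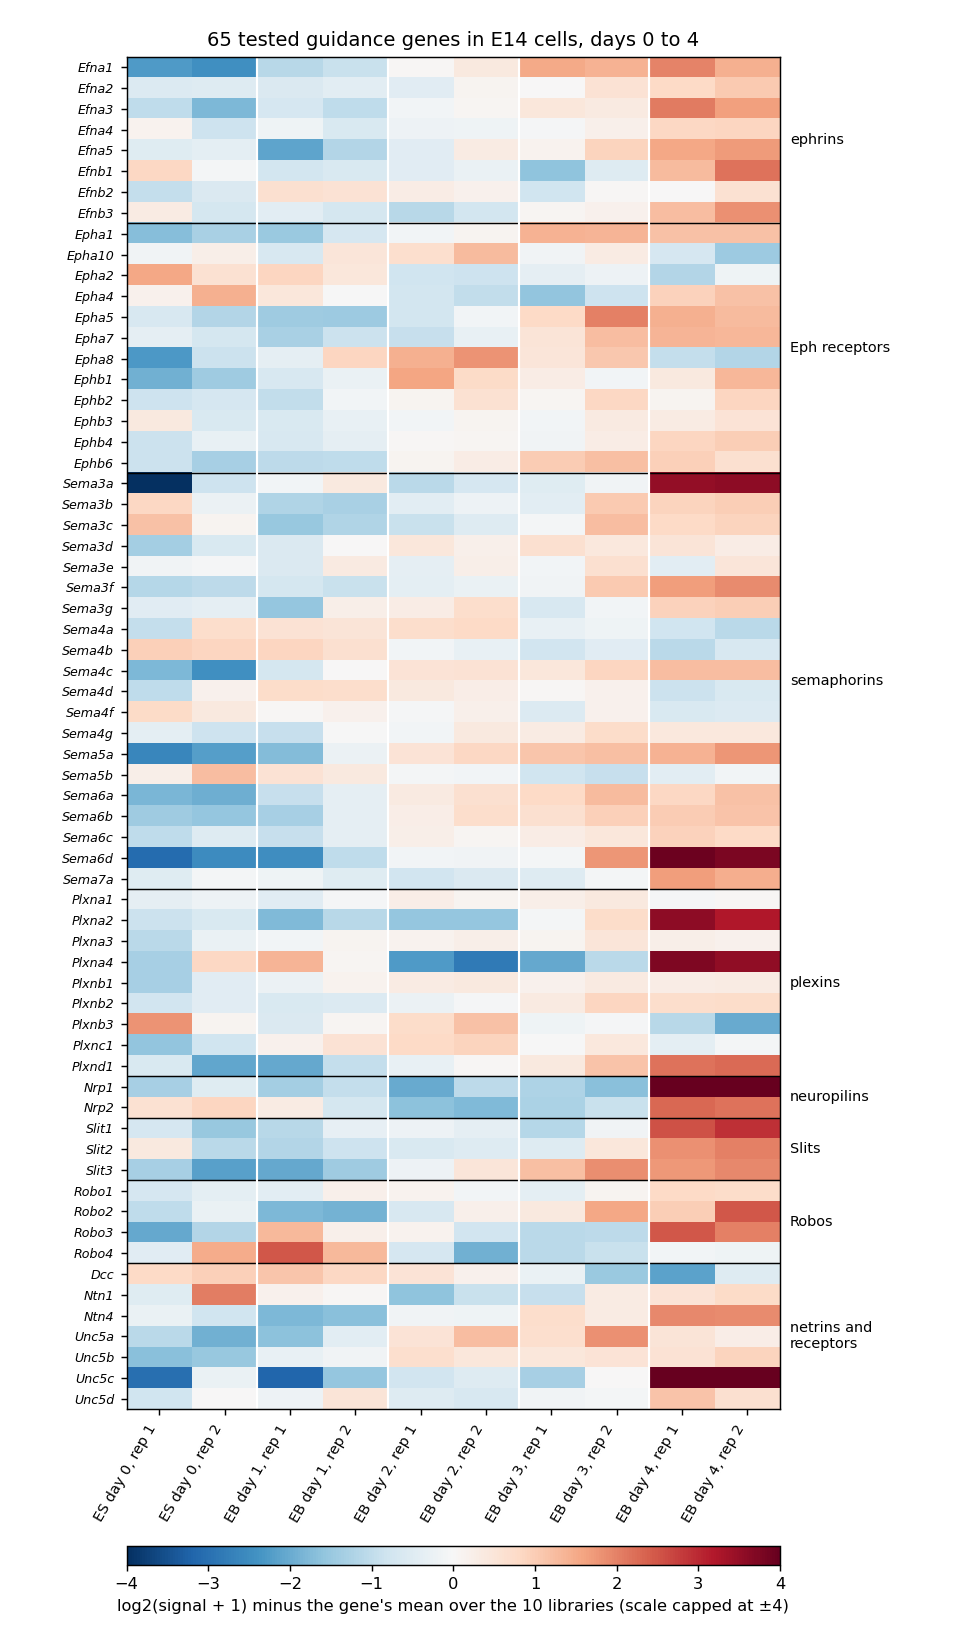
Log2 of the normalised read count plus 1 of each of the 65 tested guidance genes (rows, by family) in the 10 E14 libraries (columns, days 0 to 4), minus the gene's mean over the libraries, with colours capped at 4 in either direction. Red fills the day 4 columns for most rows, and Nrp1, Unc5c, Sema3a, Sema6d, Plxna2 and Plxna4 stand out there.

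Among the ligands, 8 of 8 ephrins were called higher, with a median log2 fold change of 1.58. Without the second day 4 library 4 of them, Efna4, Efnb1, Efnb2 and Efnb3, were not called, and Efna4 was not called without the first either. Efna1, a lipid-anchored ligand of EphA receptors, had 867 and 591 normalised reads at day 4, against 45.0 and 39.2 at day 0. Both day 4 libraries lay far above both day 0 libraries, a log2 fold change of 4.06 ± 0.29 (SE, limma, adjusted p = 2.16e-05). Efna3, of the same class, had 1908 and 1398 at day 4, against 222 and 128 at day 0 (3.27 ± 0.30). The smallest ephrin rise was that of Efnb2, a transmembrane ligand that marks arterial endothelium in the embryo, with 1687 and 2534 at day 4, against 856 and 1110.1 at day 0 (1.08 ± 0.29). Efnb2 was not called without the first day 0 library. Efnb1 had 636 and 1202 at day 4, against 475 and 249 at day 0 (1.34 ± 0.45). Without the second day 0 library its log2 fold change was 0.88 and it was no longer called. Its call was lost in 7 of 16 alternatives, among them no filter on low reads and each left-out library of days 1 and 2.

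Of the 20 semaphorins, 11 rose and 3 fell, with a median of 1.37. Sema6d, a transmembrane semaphorin that binds plexin A1, had 1111 and 1010.0 normalised reads at day 4, against 7.68 and 11.9 at day 0. Its day 4 libraries were the highest and its day 0 libraries the lowest of the course, a log2 fold change of 6.65 ± 0.63 (adjusted p = 7.93e-05). Sema3a, the secreted cue that collapses growth cones through Nrp1, had 213 and 221 at day 4, against 0 and 9.50 at day 0, where 1 library held no read of it (6.07 ± 0.88, adjusted p = 7.42e-04, with the pseudocount of 1 setting part of the size, and 4.37 and 7.77 without the first and the second day 0 library). Sema5a, a transmembrane semaphorin with thrombospondin repeats, had 775 and 1006 at day 4, against 47.2 and 62.9 at day 0 (3.99 ± 0.43). Further rises were those of Sema4c (3.35), Sema6a (2.88), Sema3f (2.87), Sema6b (2.56), Sema7a (1.85), Sema6c (1.64), Sema3d (1.38) and Sema4g (1.04). All 4 class 6 semaphorins, which are bound to the membrane and act through plexin A receptors, were therefore called higher. The call of Sema3d was lost in 9 of 16 alternatives, among them DESeq2, no filter on low reads and 7 of 10 left-out libraries.

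The 3 semaphorins that fell were transmembrane proteins of classes 4 and 5. Sema4b had 689 and 937 normalised reads at day 4, against 2824 and 2643 at day 0 (-1.76 ± 0.21, adjusted p = 2.50e-04). Sema4f had 76.7 and 80.4 at day 4, against 202 and 154 at day 0 (-1.16 ± 0.35, adjusted p = 0.0260), and its call was lost without the first day 0 library and without either day 4 library. Sema5b, a paralogue of Sema5a that moved the other way, had 119.6 and 148 at day 4, against 189.9 and 374 at day 0 (-0.998 ± 0.352, adjusted p = 0.0494). Sema5b had the highest adjusted p of the 50 called members, and its call was lost in 13 of 16 alternatives, among them a pseudocount of 5, TMM scaling, no filter on low reads and each left-out library other than the first of day 0.

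All 3 Slit genes, the secreted ligands of Robo receptors, rose. Slit3 had 3312 and 3726 normalised reads at day 4, against 393 and 219.6 at day 0 (3.58 ± 0.36, adjusted p = 1.08e-04). Slit1 had 291 and 377 at day 4, against 30.7 and 16.6 at day 0 (3.81 ± 0.49, adjusted p = 4.06e-04). Slit2 had 844 and 969.7 at day 4, against 314 and 114 at day 0 (2.25 ± 0.47, and 2.98 and 1.52 without the first and the second day 0 library). Of the netrin ligands 1 was called. Ntn4, a laminin-related netrin of basement membranes, had 67.6 and 66.3 at day 4, against 14.3 and 9.50 at day 0 (2.42 ± 0.44), while Ntn1 had 1588 and 1860.1 at day 4, between the 2 day 0 values of 787 and 4502. For Ntn1 the log2 fold change was -1.39 without the first day 0 library and 1.13 without the second, so these data give it no direction.

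Among the receptors, those for semaphorins held 4 of the 12 largest rises. Nrp1, the neuropilin that pairs with plexin A receptors for Sema3a and also binds VEGF, had 1625 and 2667 normalised reads at day 4, against 24.1 and 43.9 at day 0. That is a log2 fold change of 5.95 ± 0.48 (adjusted p = 3.64e-05), and the highest library of days 0 to 3 held 43.9. Plxna2, a plexin that binds class 6 semaphorins, had 4392 and 3409 at day 4, against 203 and 241 at day 0 (4.12 ± 0.33, adjusted p = 3.63e-05). Plxna4 had 679 and 607 at day 4, against 19.8 and 90.2 at day 0 (3.88 ± 0.70, and 2.82 and 4.95 without the first and the second day 0 library). Plxnd1, the receptor through which Sema3e acts on endothelial cells, had 1878 and 1973 at day 4, against 269 and 97.4 at day 0 (3.56 ± 0.49, and 4.29 and 2.84 with those libraries left out in that order). Of the 9 plexins, 6 rose (Plxna2, Plxna4, Plxnd1, Plxnb2, Plxnb1 and Plxna3, the last by 0.87), and both neuropilins rose. Plxnb3 fell, with 4.95 and 2.17 at day 4, against 43.9 and 13.1 at day 0 (-2.53 ± 0.64), on few reads, and was not called without the first day 0 or the second day 4 library. Plxna1 had 7495 and 7996 at day 4, against 6014 and 6735 at day 0, and was not called (0.28 ± 0.17).

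Of the 12 tested Eph receptors, 7 rose and 1 fell. Epha1 had 8915 and 8945 normalised reads at day 4, against 1206 and 1621 at day 0 (2.67 ± 0.25, adjusted p = 7.87e-05). The other risers were Ephb1 (2.53), Epha5 (2.25, on few reads), Ephb6 (1.89), Epha7 (1.87), Ephb4 (1.50), the partner of ephrin B2 in vessels, and Ephb2 (1.23). Epha2, a receptor of EphA ligands found in many epithelia, went the other way, with 2179.6 and 4366 at day 4, against 14319.9 and 7499.8 at day 0 (-1.75 ± 0.35, adjusted p = 0.00428). Efna1, a ligand that binds Epha2, was called higher over the same days.

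Of the 4 Robos, 3 rose. Robo3, which in mammals lets commissural axons cross the midline, had 329.9 and 236 normalised reads at day 4, against 13.2 and 24.9 at day 0 (3.87 ± 0.51). Robo2 (2.38) and Robo1 (1.31) rose as well, and the endothelial Robo4 was not called, with 99.0 and 95.7 at day 4, against 77.9 and 300.4 at day 0. Of the netrin receptors, Unc5a, Unc5b and Unc5c, which mediate repulsion, rose, and Dcc fell. Unc5a was not called without the second day 0 library or without either day 4 library. Unc5c had 306 and 1438 at day 4, against 1.10 and 13.1 at day 0, the largest log2 fold change of the 65 tested members (6.94 ± 1.01, adjusted p = 7.84e-04), with day 4 libraries that lay far apart from each other. Without the first and the second day 0 library its log2 fold change was 5.56 and 8.31. Unc5b had 7428 and 9128 at day 4, against 1569.5 and 1726 at day 0 (2.32 ± 0.17, adjusted p = 2.16e-05). Dcc had 11.5 and 38.1 at day 4, against 94.4 and 107 at day 0 (-2.20 ± 0.58, adjusted p = 0.0151), and without the first day 4 library its log2 fold change was -1.38 and it was not called. Unc5d had 45.4 and 31.5 at day 4, against 11.0 and 20.2 at day 0, and was not called.

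**Figure D2:**
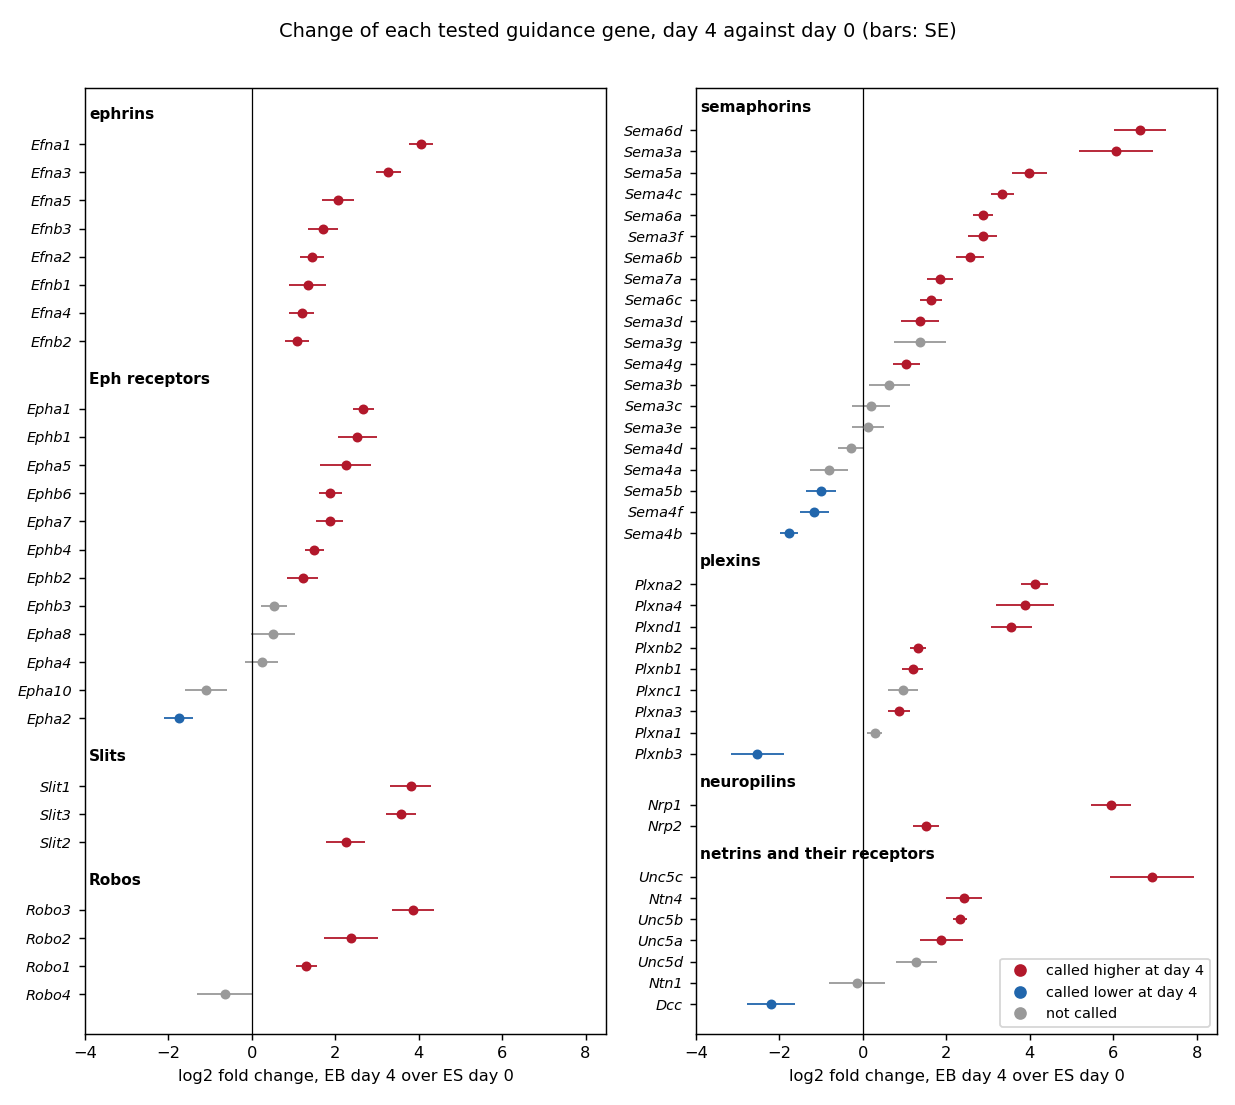
Log2 fold change (limma) of each tested guidance gene, EB day 4 over ES day 0, by family, with bars for the standard error. Of the 65 genes 44 are called higher (red), 6 lower (blue) and 15 are not called (grey), and all 8 ephrins and 3 Slits lie to the right of 0.

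The count of called members stood at 48 without the first day 0 library and 49 without the second, and at 41 and 36 without the first and the second day 4 library. Ephb3, Ntn1, Robo4, Sema4a and Sema4d were called in addition without the first day 0 library, and Epha4, Plxnc1 and Unc5d without the second. Calls lost without the first day 0 library were those of Efnb2, Ephb2, Plxna3, Plxnb3, Robo2, Sema3d and Sema4f, and without the second those of Efnb1, Sema4g, Sema5b and Unc5a. Epha5, Plxna3, Sema3d and Sema4g were among those lost without either day 4 library. Markers of other cell types moved over the same days. Of 9 tested endothelial and blood markers, 3 rose and 3 fell. Their summed level was 9903 and 10828 at day 4, against 2005 and 2815 at day 0. Most of the day 4 sum came from Kdr, a VEGF receptor also made by early mesoderm. The blood regulator Tal1 had 976 and 1060.0 at day 4, against 1.10 and 48.7 at day 0. The endothelial Cdh5 had 88.2 and 77.2 at day 4, against 6.59 and 4.75 at day 0. Lower at day 4 were the endothelial Pecam1, Tek and Tie1. Pecam1 had 91.5 and 172 at day 4, against 1382 and 1906 at day 0. Tek had 56.9 and 58.7 at day 4, against 365 and 404 at day 0. Tie1 had 20.6 and 38.1 at day 4, against 109.8 and 71.2 at day 0. Emcn had 0 and 1.09 at day 4 and 0 in both day 0 libraries. Of 7 tested endoderm markers, 5 rose, with a summed level of 4508 and 4980.3 at day 4, against 151 and 163 at day 0. Of 6 tested trophoblast markers, 3 rose and 1 fell, with a summed level of 34643 and 44116 at day 4, against 32019 and 10566 at day 0. That sum includes Eomes, which the streak list also holds, with 15236 and 14425.5 at day 4, against 424 and 145 at day 0. Of 5 neural crest markers, 2 rose and 1 fell, and of 7 tested feeder fibroblast markers 2 rose. Of 9 tested neural markers, 1 rose and 4 fell, with a summed level of 6389 and 5896 at day 4, against 11782 and 10746 at day 0. The part of these cell types in the guidance gene changes was not tested.

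The 5 days allowed the changes to be placed in time. Over all days, 54 of 65 members changed (83.1%, limma moderated F, where 38.9% of all genes tested did). Of these, 36 had their highest mean at day 4, 6 at day 3, 4 at day 2, 4 at day 1 and 4 at day 0. The day of the highest mean was not counted over all changing genes. Between day 1 and day 0, 7 members rose and 1 fell (3.3% of all genes called, 1.75% higher and 1.55% lower). Between day 2 and day 1 no member was called (0.593% of all genes, 0.158% higher and 0.436% lower), though 23 of 65 were higher and 6 lower at an unadjusted p under 0.05 (10.7% and 8.57% of all genes). Between day 3 and day 2 none was called either (0.133% of all genes), with 10 higher and 1 lower at an unadjusted p under 0.05 (4.56% and 5.8% of all genes). In both of these steps edgeR called 0 members. DESeq2 called 16 for day 2 over day 1, where it called 8.07% of all genes, and 7 for day 3 over day 2, where it called 1.95%. Between day 4 and day 3, 13 rose and none fell (2.93% of all genes called, 2.31% higher and 0.619% lower).

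The first group of genes gained most of its rise early. Of the 44 members that were higher at day 4, 18 had at least 50% of their log2 change by day 2 and 26 by day 3. These shares, and that of the late risers below, were not computed over all rising genes. Unc5b had 1569.5 and 1726 normalised reads at day 0, 4044 and 4523 at day 1, 7902 and 6779.5 at day 2, 6823 and 7238 at day 3, and 7428 and 9128 at day 4. It thus stood near its final level from day 2 on, and the step of day 1 over day 0 was called (1.38 ± 0.17, adjusted p = 0.00380). Sema4c, a transmembrane ligand of plexin B2, was also called at that step, with 629.8 and 1020.5 at day 1, against 292 and 186 at day 0 (1.78 ± 0.28, adjusted p = 0.0123), and so were Efna1 (1.36), Efnb2 (1.39), Sema6a (1.24), Plxnc1 (1.57) and Robo3 (2.37). Sema3c, a secreted cue of cardiac outflow development, fell (-2.01 ± 0.46, adjusted p = 0.0451). It had 90.5 and 111 at day 1, against 592 and 280.2 at day 0. Of these 8 calls, only that of Unc5b was kept in all 10 runs with 1 library left out. Plxnc1 and Robo3 lost theirs in 9 of these runs, Efna1 in 8, Efnb2 and Sema3c in 7, Sema6a in 5 and Sema4c in 1. The edgeR test did not call Plxnc1. The count of 8 at this step was 24 without the second day 0 library, 5 without the first day 0, the first day 1 or either day 3 library, 2 without any 1 library of day 2 or day 4, and 1 (Unc5b) without the second day 1 library. For day 2 over day 1 it was 24 and 23 without the first and the second day 0 library and 10 without the second day 1 library, and for day 3 over day 2 it was 4 with either day 0 library left out.

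**Figure D3:**
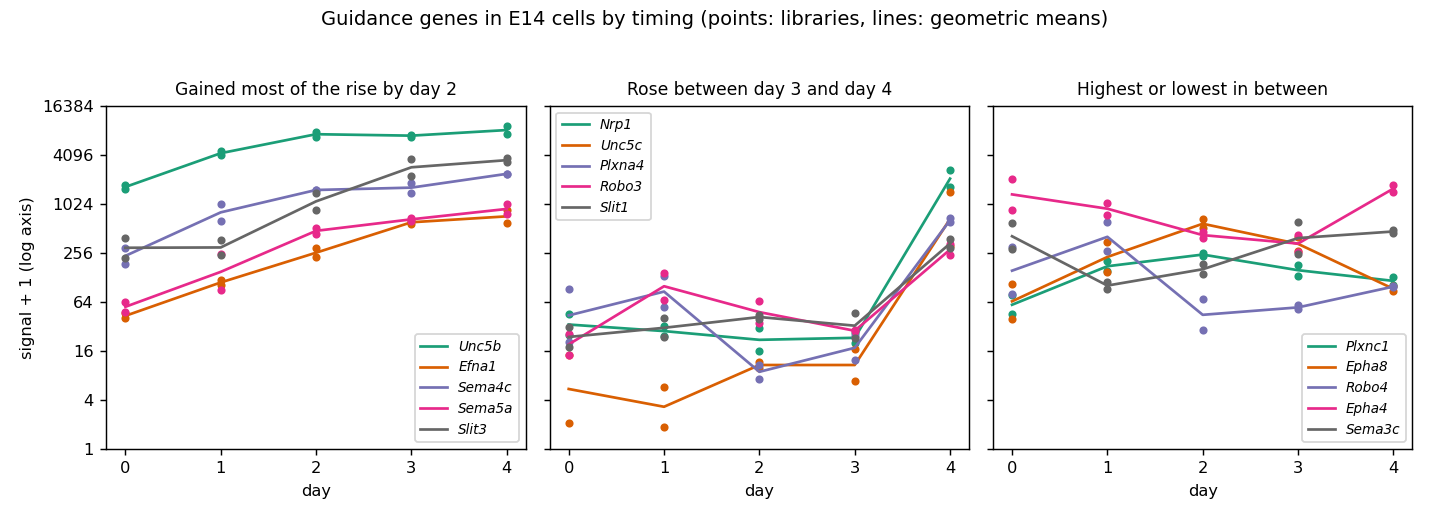
Normalised read count plus 1 (log axis) of 15 guidance genes against day in E14 cells, with points for libraries and lines for geometric means of 2. Unc5b, Efna1, Sema4c, Sema5a and Slit3 climb from day 0 or day 1 on, Nrp1, Unc5c, Plxna4, Robo3 and Slit1 jump at day 4, and Plxnc1, Epha8, Robo4, Epha4 and Sema3c peak or dip in between.

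The second group rose late. At day 3, 10 of the 44 risers had under 25% of their final log2 change: Efnb1, Efnb3, Nrp1, Nrp2, Plxna4, Robo3, Sema7a, Slit1, Slit2 and Unc5c. Nrp1 had 24.1 and 43.9 normalised reads at day 0, 23.3 and 31.1 at day 1, 14.7 and 29.3 at day 2, 25.7 and 18.9 at day 3, and 1625 and 2667 at day 4. Its level was flat for 4 sampling days and its whole rise lay between day 3 and day 4 (6.49 ± 0.48, adjusted p = 2.99e-04). Unc5c had 5.72 and 16.0 at day 3, and day 4 over day 3 gave 5.96 ± 1.01 (adjusted p = 0.0132). Plxna4 had 679 and 607 at day 4, against 11.4 and 23.3 at day 3 (5.21 ± 0.70, adjusted p = 0.00453), and Sema3a had 213 and 221 at day 4, against 12.4 and 16.0 at day 3 (3.85 ± 0.88, adjusted p = 0.0485). The call of Sema3a at this step was lost with no filter on low reads and in 8 of 10 runs with 1 library left out, and that of Plxna4 without the first day 3 library and without either day 4 library. The other members called there were Slit1 (3.35), Nrp2 (3.32), Robo3 (3.31), Plxna2 (3.05), Sema6d (3.00), Efnb1 (2.78), Epha4 (2.24), Sema7a (1.87) and Efna3 (1.46). The count of 13 was 22 with either day 0 library left out, 3 without the first day 3 library, 5 without the first day 4 library and 3 without the second. Nrp1, Nrp2 and Plxna2 were called in each of these. Over this step 5 of 8 streak and early mesoderm markers rose too, with a summed level of 52619 and 46375 at day 4, against 13776 and 20188 at day 3, and their part in the result was not tested.

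Several genes had a course that the end points do not show. Nrp2, the co-receptor for Sema3f, had 1332 and 1556 normalised reads at day 0, 1087 and 526 at day 1, 275 and 255 at day 2, 363 and 463 at day 3, and 4279 and 3932 at day 4. It was lowest in the middle of the course and highest at its end. Robo3 had 144 and 67.1 at day 1 and 26.7 and 27.7 at day 3, between its day 0 and day 4 values given above. It was called higher at both the first and the last step. Neither call was stable: in 10 runs with 1 library left out, the first was lost in 9 and the last in 4. The first was also lost with no filter on low reads. In 7 members a change over the days was called with no call of day 4 against day 0: Epha4, Epha8, Plxnc1, Robo4, Sema3b, Sema3c and Sema4d.

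Of these 7, Epha8 was low at both ends of the course. It had 38.4 and 106 normalised reads at day 0, 147 and 347 at day 1, 509.9 and 661 at day 2, 267 and 403 at day 3, and 98.1 and 84.8 at day 4 (adjusted p = 0.00500 over the 5 days). Its day 2 libraries were the highest, and those of day 4 lay between those of day 0. Epha4, a receptor for ephrins of both classes that acts at somite boundaries, had 864 and 2057 at day 0, 257 and 425 at day 3, and 1439 and 1717 at day 4 (adjusted p = 0.00474). Robo4 was highest at day 1, with 607 and 264, and lowest at day 2, with 67.5 and 27.6 (adjusted p = 0.0176). Plxnc1, the plexin that binds Sema7a, was highest at day 2, with 235 and 249.8, against 43.9 and 76.0 at day 0 (adjusted p = 0.0108). Dcc, which was called lower at day 4, had 118 and 98.2 at day 1, 80.3 and 61.3 at day 2, and 44.8 and 18.9 at day 3, so that each day from day 2 on had a lower mean than the day before.

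Proteins that pass on or modify guidance signals were described alongside. Of 55 such genes tested, 23 rose and 3 fell between day 0 and day 4 (47.3% called), with a median log2 fold change of 0.68. Ntng1, a membrane-anchored relative of the netrins, rose by 4.63, on 35.5 and 35.9 normalised reads at day 4, against 0 and 1.19 at day 0. Nrcam (3.49) and L1cam (2.31), adhesion molecules that form complexes with neuropilins, rose, and so did Rgma (3.31), a ligand of the Dcc relative neogenin, Dpysl5 (2.91), a collapsin response mediator protein, and Ablim1 (2.74), an actin-binding protein downstream of netrin signalling. Among those that fell were Enah (-1.49), an actin regulator that Robo and netrin receptors recruit, and Crmp1 (-1.13), which acts downstream of Sema3a.

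The genotype comparison asked which day 4 levels differ when the p53 family is lost. The targeted genes were checked first, although whether the counted reads lie in the deleted part of Trp53 is not given in the sources used here. Trp53 had 866 and 802.5 normalised reads in p53 family loss, against 8339 and 11784 in Trp53+/+ EBs (-3.57 ± 0.20, adjusted p = 0.00168), and Trp73 had 48.0 and 52.5 in p53 family loss, against 219 and 297 in Trp53+/+ EBs (-2.32 ± 0.28, adjusted p = 0.0224). Trp63 had at most 6.08 in any of these libraries and was not tested. Of 64 tested guidance genes, 4 were lower in p53 family loss (Slit3, Plxna2, Sema7a and Epha1) and 1 was higher (Dcc). That is 7.81% of the tested members, where 1.24% of all 14840 genes tested were called (0.566% higher and 0.674% lower). The members' median log2 fold change was -0.10, against 0.01 over all genes. DESeq2 called 13 members, and 4.38% of all genes.

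The 4 genes that were lower in p53 family loss are shown by the 250 bases before their start, because Smad proteins and p53, the factors this study followed, act at promoters and enhancers. The sequences are those of RefSeq on mouse build GRCm38.p6, given 5′ to 3′ on the strand of the gene, and capitals mark CAGAC, the core of a Smad binding element, or its reverse complement GTCTG. Slit3 stands at chr11:35121206-35121455 (plus strand), Plxna2 at chr1:194619579-194619828 (plus strand), Sema7a at chr9:57939862-57940111 (plus strand) and Epha1 at chr6:42373269-42373518 (minus strand).
Slit3: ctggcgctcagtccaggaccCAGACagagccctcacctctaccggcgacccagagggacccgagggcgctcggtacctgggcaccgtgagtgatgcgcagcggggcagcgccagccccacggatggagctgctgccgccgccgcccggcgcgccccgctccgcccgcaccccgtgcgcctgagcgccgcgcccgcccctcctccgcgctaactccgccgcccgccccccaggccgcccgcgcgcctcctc
Plxna2: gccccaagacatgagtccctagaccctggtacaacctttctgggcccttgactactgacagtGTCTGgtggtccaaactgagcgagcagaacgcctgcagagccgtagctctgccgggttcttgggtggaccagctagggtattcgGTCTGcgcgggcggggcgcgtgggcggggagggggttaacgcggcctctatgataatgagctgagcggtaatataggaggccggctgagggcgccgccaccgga
Sema7a: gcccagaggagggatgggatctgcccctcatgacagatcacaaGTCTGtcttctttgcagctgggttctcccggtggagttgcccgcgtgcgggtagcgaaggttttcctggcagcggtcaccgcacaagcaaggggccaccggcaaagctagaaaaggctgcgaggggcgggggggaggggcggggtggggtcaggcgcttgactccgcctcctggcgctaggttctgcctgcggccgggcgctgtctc
Epha1: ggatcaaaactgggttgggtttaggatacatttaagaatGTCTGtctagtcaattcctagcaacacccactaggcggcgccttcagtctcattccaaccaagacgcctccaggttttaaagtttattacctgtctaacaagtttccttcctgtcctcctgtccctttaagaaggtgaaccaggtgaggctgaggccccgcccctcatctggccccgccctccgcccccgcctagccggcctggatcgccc
The Smad core was present in 4 of these 4 windows, in 49.3% of the 73 member windows (57 of 67 members had one) and in 42.2% of all 32851 windows, both strands searched. The Tcf core CTTTGA was in 0 of the 4, in 5.48% of the member windows and in 13.8% of all windows. The p53 half-site, searched by its usual consensus, was in 0 of the 4, in 5.48% of the member windows and in 7.13% of all. A short match of this kind describes letters only.

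Slit3 had 625 and 386 normalised reads in p53 family loss, against 2871 and 1788 in Trp53+/+ EBs. Both loss libraries lay below both Trp53+/+ libraries, a log2 fold change of -2.20 ± 0.31 (adjusted p = 0.0368). Plxna2 had 458 and 341 in p53 family loss, against 2325 and 1242 in Trp53+/+ EBs (-2.10 ± 0.32, adjusted p = 0.0453). Sema7a, a lipid-anchored semaphorin that signals through integrins and plexin C1, had 126 and 102 in p53 family loss, against 342 and 377 in Trp53+/+ EBs (-1.65 ± 0.24, adjusted p = 0.0378). Epha1 had the closest replicates, 2534 and 2511 in p53 family loss, against 6196 and 6571 in Trp53+/+ EBs (-1.34 ± 0.14, adjusted p = 0.0165). For these genes each group's libraries lay apart from the other's. This was among the criteria for choosing genes with printed values, so it is no separate support.

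Dcc had 45.1 and 24.1 normalised reads in p53 family loss, against 1.74 and 1.33 in Trp53+/+ EBs (3.75 ± 0.55, adjusted p = 0.0406). Behind these values were 89 reads in the 2 loss libraries and 3 in the 2 Trp53+/+ libraries. That is a rate ratio of 22.5, with a 95% exact interval of 7.44 to 111 that covers counting error only. The interval uses the same reads as the call, so it is no separate support. Dcc passed the filter on low reads through the loss libraries alone. Leaving out 1 library moved these calls, and the share of all genes called in those runs is not given here. Dcc was not called without the first loss library (adjusted p = 0.241), and Sema7a was not called without the second (adjusted p = 0.0666). The count of 5 became 7 without the first and 5 without the second loss library, and 16 and 18 without the first and the second Trp53+/+ library. Slit3, Plxna2 and Epha1 were called in all 4 of these, in which 1 group holds a lone library that is assumed to vary like the other group.

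**Figure D4:**
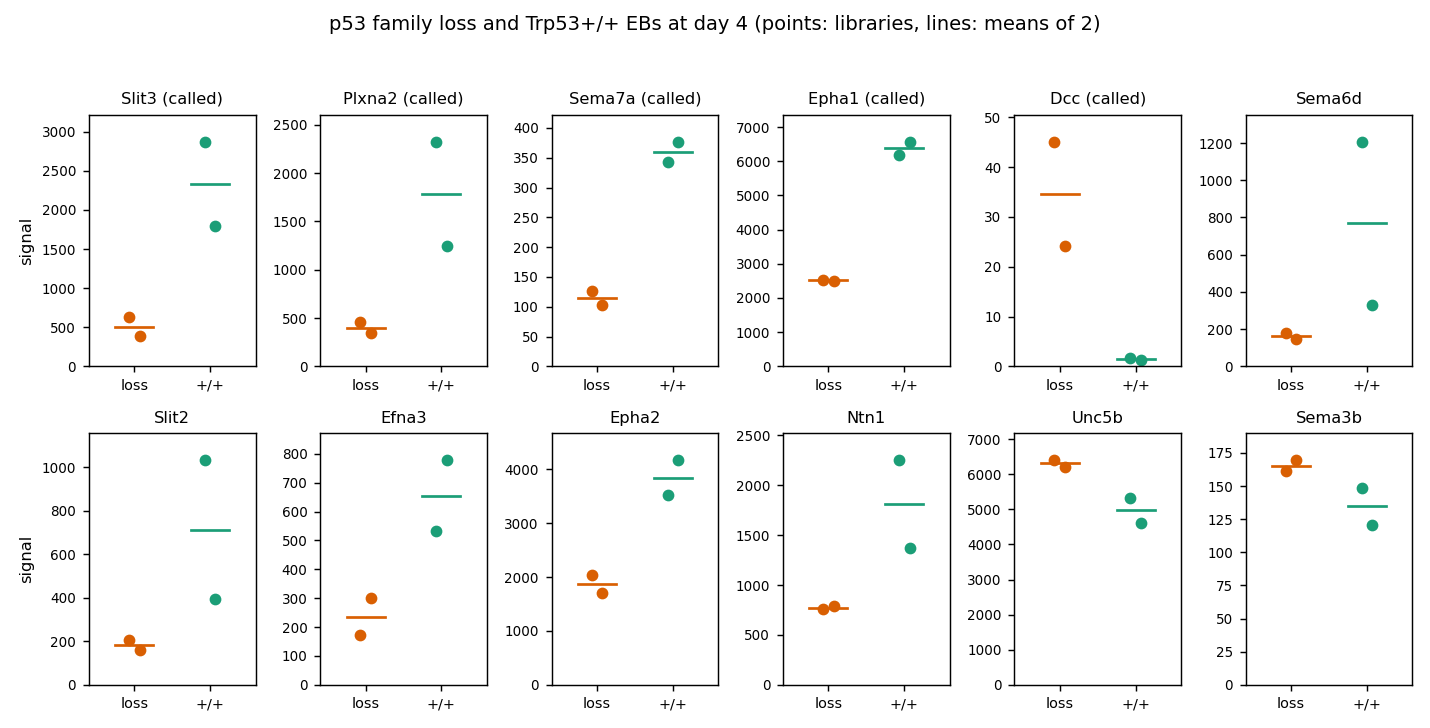
Normalised read counts of 12 guidance genes in EBs at day 4, p53 family loss (left of each panel) and Trp53+/+ (right), with points for libraries and lines for means of 2. The 5 genes marked as called passed the adjusted threshold, Slit3, Plxna2, Sema7a and Epha1 with lower values in p53 family loss and Dcc with higher ones.

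Genes with a known link to p53 were looked at whether or not they were called. Unc5b, whose human counterpart is a p53 target that signals cell death when netrin is absent, had 6396 and 6218 normalised reads in p53 family loss, against 5331 and 4612 in Trp53+/+ EBs (0.35 ± 0.15, adjusted p = 0.394). Sema3b, another p53-inducible gene in human cells, had 161 and 169 in p53 family loss, against 149 and 121 in Trp53+/+ EBs (0.30 ± 0.25, adjusted p = 0.694). Epha2, a target of p53 family members in human cells, had 2032 and 1709 in p53 family loss, against 3528 and 4171 in Trp53+/+ EBs (-1.04 ± 0.17, adjusted p = 0.0558). The point values of Unc5b and Sema3b were thus higher in p53 family loss and that of Epha2 lower. None of the 3 passed the main limma test. With the replicate block, limma called Unc5b as higher in p53 family loss and Epha2 as lower, but not Sema3b. The share of all genes called with that block is given in the closing section. Epha2 was called by DESeq2, with no filter on low reads and without either Trp53+/+ library.

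Other members had large differences that the main limma fit did not call. Of those that follow, DESeq2 called Sema6d, Slit2, Efna3, Ntn1, Plxna4, Sema5a and Sema5b. Sema6d had 178 and 144 normalised reads in p53 family loss, against 1207 and 329 in Trp53+/+ EBs (-1.97 ± 0.57, adjusted p = 0.196). Slit2 had 207 and 161 in p53 family loss, against 1032 and 394 in Trp53+/+ EBs (-1.80 ± 0.45, adjusted p = 0.140), and Efna3 had 171 and 299 in p53 family loss, against 533 and 777 in Trp53+/+ EBs (-1.50 ± 0.33, adjusted p = 0.111). Ntn1 had 756 and 792 in p53 family loss, against 2250.1 and 1372 in Trp53+/+ EBs (-1.18 ± 0.25, adjusted p = 0.106). Plxna4 had 99.0 and 43.0 in p53 family loss, against 369 and 104.8 in Trp53+/+ EBs. Sema5a had 338 and 309 in p53 family loss, against 729 and 525 in Trp53+/+ EBs. In the other direction, Sema5b had 494 and 497 in p53 family loss, against 239 and 269 in Trp53+/+ EBs. Sema3a had 369.6 and 155 in p53 family loss, against 141 and 19.9 in Trp53+/+ EBs. Robo2 had 40.7 and 43.0 in p53 family loss, against 11.3 and 9.29 in Trp53+/+ EBs. In Sema6d, Slit2, Plxna4 and Sema3a the first Trp53+/+ library was far above the second. Nrp1 spread in the same way, with 329.6 and 97.2 in p53 family loss, against 573 and 186 in Trp53+/+ EBs.

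The main limma fit called no ephrin and no Robo between the genotypes, and DESeq2 called Efna3. With the replicate block, limma called Efna1, Efna3, Efna4, Efna5, Efnb2 and Robo2. Of the 54 tested partner and effector genes 1 was called, Dscaml1, an adhesion molecule of the Dscam family that includes a netrin receptor. It had 1.48 and 2.58 normalised reads in p53 family loss, against 96.4 and 69.0 in Trp53+/+ EBs (-4.79 ± 0.47, adjusted p = 0.0137). Dscaml1 passed the filter on low reads through the Trp53+/+ libraries alone. Markers of other cell types differed between the same libraries. Of 8 streak and early mesoderm markers, 5 were lower in p53 family loss, with a median log2 fold change of -2.30 and a summed level of 6263 and 6376, against 30163 and 34929 in Trp53+/+ EBs. Of 9 tested neural markers, Sox1 and Pax6 were higher, and the list's summed level was 9594 and 10542 in p53 family loss, against 4378 and 6911 in Trp53+/+ EBs. Of 7 tested endoderm markers 1 was lower, with a summed level of 1397 and 1285 in p53 family loss, against 5219 and 3042 in Trp53+/+ EBs. Of 6 tested trophoblast markers 1 was lower. The list's summed level was 17509.8 and 15766 in p53 family loss, against 27694 and 27931 in Trp53+/+ EBs. Most of the difference in that sum lay in Eomes, which the streak list also holds. Eomes had 3112 and 3469 in p53 family loss, against 12022 and 16743 in Trp53+/+ EBs. Of 7 tested feeder fibroblast markers 1 was higher, with a summed level of 2863 and 2401 in p53 family loss, against 1384 and 1272 in Trp53+/+ EBs. No endothelial, blood, neural crest or naive ES cell marker was called. The 10 tested endothelial and blood markers had a median log2 fold change of 1.24 in p53 family loss, from -1.13 to 3.43. Their list's summed level was 2593 and 1405 in p53 family loss, against 2817 and 1205 in Trp53+/+ EBs. The median was 0.36 for neural crest markers and -0.15 for naive ES cell markers. The part of these cell types in the guidance gene differences was not tested.

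The genotype and E14 libraries are separate, so each called gene could be placed in the E14 course. Slit3, Plxna2, Sema7a and Epha1, which were lower in p53 family loss, were all called higher at day 4 over day 0 in E14 cells (3.58, 4.12, 1.85 and 2.67), and Dcc, which was higher in p53 family loss, was called lower there (-2.20). Among members called in the course and tested in both experiments, 44 rose and 5 fell, so most of them were risers to begin with. Of the 44 members that rose, 26 were lower in p53 family loss by their point value, 59.1%. Of the 2923 rising genes tested in both experiments the share was 55.1%. Of the 5 members that fell, 2 were lower in p53 family loss, 40%, and of the 2340 falling genes the share was 44.3%. Of the same 44 members, 4 were called lower in p53 family loss, 9.09%, and of all rising genes 47, or 1.61%. Of the 10 late risers, Sema7a was called lower in p53 family loss. The main limma fit did not call the others. These were Slit2 (-1.80), Plxna4 (-1.58), Nrp1 (-0.86), Slit1 (-0.72), Nrp2 (-0.43), Robo3 (-0.33), Efnb3 (0.16), Efnb1 (0.39) and Unc5c (0.41). Of these, DESeq2 called Slit2 and Plxna4, and limma with the replicate block called Slit2, Plxna4 and Nrp1.

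**Figure D5:**
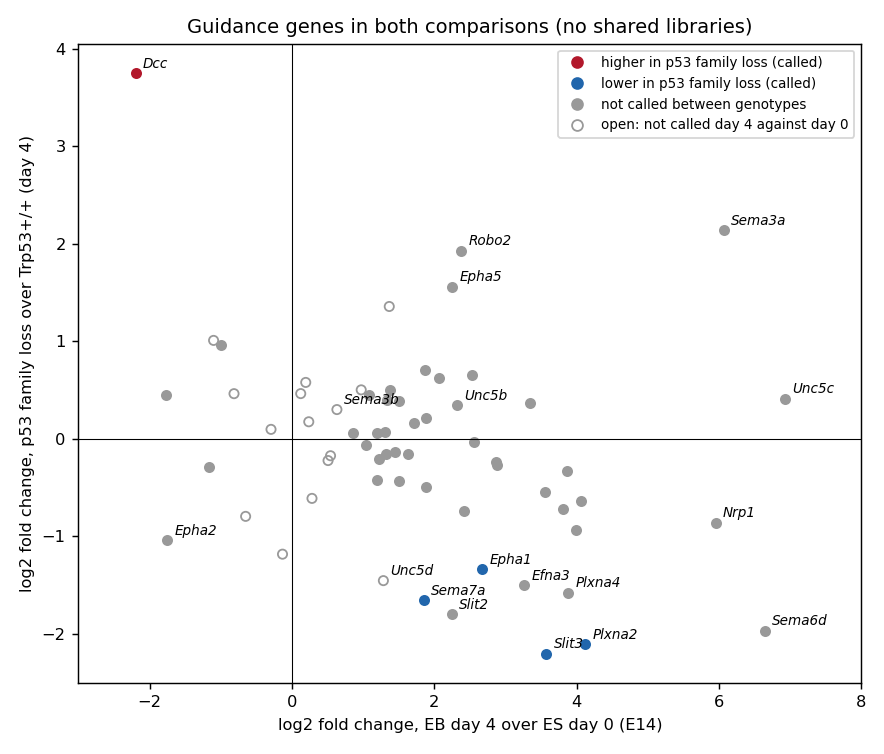
Log2 fold change of each guidance gene in p53 family loss over Trp53+/+ EBs (vertical) against that of EB day 4 over ES day 0 in E14 cells (horizontal), from separate libraries. Slit3, Plxna2, Sema7a and Epha1 (blue, lower in p53 family loss) lie to the right, and Dcc (red) lies at the upper left.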

How the data were processed

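RNA-seq libraries of E14 ES cells and EBs (10) and of day 4 EBs of 2 genotypes (4) were used, and the ChIP-seq samples were not analysed here. The deposited tables, 1 per experiment, hold a signal per gene, read counts that the authors divided by 1 factor per library, as tested on the files: 100% of values were whole multiples of the library's step within 1e-06, so whole reads were recovered. Tools named per the submitters' processing notes, without role or order, are FastQC 0.11.3, Bowtie2, SAMtools 0.1.19, HTSeq 0.5.4 and DESeq2, with mouse build mm9. The tables were scaled separately, and each was fitted alone and whole.

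Genes passing filterByExpr (edgeR 4.0.16) on recovered reads were tested with limma 3.58.1 (R 4.3.3, intensity trend) on log2(signal + 1), with a pseudocount of 1 that understates changes of low genes, and adjusted over 15841 genes in the time course (5 residual degrees of freedom) and 14840 in the genotype table (2). The fit was tested on simulated data. Alternatives were edgeR's quasi-likelihood test with TMM, DESeq2 1.42.0, TMM scaling, a pseudocount of 5, no filter, a replicate block and each library left out. Counts of reads were used for Dcc, and depth limits genes near 1 read per library.

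Members, gene lists and tests were chosen with earlier results of these data known. Values per library are given for up to 12 called members with the largest rise and fall between the genotypes and between days 4 and 0, up to 4 per step, members called in both, and Unc5b, Sema3b and Epha2. Members taken by size of change also had to have groups that did not overlap and a minimum mean read rate in the higher group. Other members with values were chosen after their values were seen.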

Additional observations from a re-analysis of the deposited data

How the results depend on the processing

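No result with a call changed its direction in any alternative run. Day 4 against day 0 gave 47 to 50 called members across the other tests, scalings, filters and the block, and 36 to 49 with 1 library left out. Any change over the days gave 44 to 61 with 1 library left out. Leaving out 1 library gave 1 to 24 called members for day 1 against day 0, 0 to 24 for day 2 against day 1, 0 to 4 for day 3 against day 2, 3 to 22 for day 4 against day 3, and 5 to 18 for the genotypes. Without the filter on low reads day 1 against day 0 gave 5. DESeq2 gave 16 for day 2 against day 1, 7 for day 3 against day 2, 20 for day 4 against day 3 (6.41% of all genes) and 13 for the genotypes. The causes were not tested. Shares of all genes called with 1 library left out are not given here. The left-out counts therefore describe how stable the calls are and do not set the members against other genes. In the E14 course same-numbered libraries did not deviate together in every pair of days (correlations -0.19 to 0.351), and the genotypes hold a single pair (0.572). The labels do not say that the numbers pair the libraries, and these data do not settle it for the genotypes. With the replicate block, day 2 against day 1 gave 1 called member. The genotypes gave 34 with it (with 20% of all genes called), among them Epha2, Unc5b, Plxna4, Slit2 and Robo2. The ephrins Efna1, Efna3, Efna4, Efna5 and Efnb2 were also among the 34. With 2 libraries a group, the genotype fit has few degrees of freedom, and changes of low-count members such as Epha5, Robo2, Plxnb3 and Dcc rest on few reads.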
